A study of Mus musculus with 6 samples.

Results

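Type I interferon-stimulated genes are the genes that cells switch on when interferon alpha or beta reaches them. The 47 genes described here were chosen by name, as a list of well-known genes of this kind, and each has a row in an expression table of 34652 mouse genes. Their own symbol found 43 of them, and an older symbol found the other 4: Ifi207 stands in the table as AI607873, Ifi209 as Pyhin1, Ifi211 as Mnda and Ifi213 as Pydc4. A test was run on 11317 genes with at least 1 FPKM (fragments scaled by gene length and library total) in at least 3 libraries, and 46 of the 47 were among them. Ifi44 was left out, with values of 0.36, 0.51 and 0.56 FPKM in resident macrophages and 0.13, 0.0095 and 1.0 in monocyte-macrophages.

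The cells came from the cerebrospinal fluid of tamoxifen-treated Cx3cr1CreER:mTmG mice, taken on day 12 after inoculation of LLC-LeptoM, a tumor line derived from Lewis lung carcinoma and adapted to the leptomeninges. All 6 libraries share this genotype, tamoxifen and tumor, and no library from mice without tumor or without interferon signaling was analysed here. In these mice Cx3cr1 drives a Cre recombinase that tamoxifen activates, and cells in which it has acted turn from red to green. Resident macrophages, labelled dLAM (below RM), were the green cells with CD45, CD11b and F4/80 but no Ly6C. Monocyte-macrophages, labelled Mono-MΦ (below MM), were a mix of non-green cells from a pair of gates, one with F4/80 and one with low F4/80 and Ly6C. Circulating monocytes also use the Cx3cr1 gene, and the time between tamoxifen and collection is not given in the sources used here. Each group has 3 libraries. Nothing in the labels ties them to different animals, so each p-value reflects variation from library to library that may be technical.

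Depth, other cell types and sex-linked RNA bear on what follows. Each library held an estimated 1.23e+07 to 1.70e+07 fragments. All 7 macrophage markers tested were detected in both groups, with 668 to 812 FPKM summed in RM and 394 to 519 in MM, and 4 of the 7 were higher in RM. Tested markers of T cells (15 of 15), natural killer cells (5 of 5) and plasmacytoid dendritic cells (7 of 7) were higher in RM. So were those of conventional dendritic cells (10 of 11) and B and plasma cells (6 of 6), against 19.9% of all tested genes. Of 8 carcinoma markers, 3 were tested, and all 3 (Epcam, Cdh1 and Krt18) were higher in RM. The other 5 were below 1 FPKM in every library. The natural killer, plasmacytoid and B cell lists held 9 markers each, and the rest were too low to test. Some tested markers, such as Prf1, Siglech, Xcr1, Mzb1, Epcam and Krt18, lay below 1 FPKM in every MM library. These passed the filter through RM alone, which largely set their direction. The T cell markers summed to between 227 and 290 FPKM in RM and to 7.78, 39.0 and 33.4 in MM1, MM2 and MM3. Neutrophil markers differed among the MM libraries, with 1491, 4910 and 8685 FPKM summed in MM1, MM2 and MM3, against 1081 to 1320 in RM. Y-linked RNA was higher in 1 library of each group, RM3 and MM2, where the Y-linked gene Ddx3y stood at 10.1 and 10.6 FPKM, against 1.56 to 2.68 in the other libraries. The part of these differences in the results below was not tested, apart from fits that take the Y-linked split into account. In bulk RNA, fewer cells of a type and less RNA per cell cannot be told apart.

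Type I interferons bind a receptor made of Ifnar1 and Ifnar2, whose kinases Jak1 and Tyk2 activate Stat2 among other factors. Together with Irf9 they form the complex ISGF3, which binds the interferon-stimulated response element in the promoters of its target genes. The targets encode proteins that sense foreign RNA and DNA, block translation, degrade RNA, modify other proteins with the ubiquitin-like Isg15, or damp the response again, as Usp18 does. Interferon gamma signals through another receptor, and its target genes overlap with this set in part.

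The letters of that element were looked for in promoter windows of RefSeq (build GRCm38.p6, from 250 bases before to 50 bases after each gene's start), which held 35 of the 47 genes. The core searched was GAAANNGAAA on either strand, where overlapping matches count separately. It occurred in the windows of 17 of the 35 genes (48.6%), against 3.99% of 27025 genes of the table with a window and 3.97% of the 7967 tested ones. Of 32 genes in the table that are induced mainly by interferon gamma, 23 had a window and 11 of these (47.8%) held the core. A match is a run of letters and not a measured binding site, and these libraries hold no binding data. The stretches below are the 150 bases before the RefSeq start, 5′ to 3′ along the gene, and capitals mark each match. They are shown for 5 genes with the core whose values are given below, among them the founding member Isg15, a gene of the Ifit cluster, and the genes with large but uncalled differences, and then for the pair of called genes with the largest differences, Lgals3bp and Cmpk2, whose windows held no match.
Isg15: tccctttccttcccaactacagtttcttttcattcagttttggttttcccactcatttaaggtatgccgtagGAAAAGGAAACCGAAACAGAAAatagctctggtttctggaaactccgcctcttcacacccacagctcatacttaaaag
Ifit1: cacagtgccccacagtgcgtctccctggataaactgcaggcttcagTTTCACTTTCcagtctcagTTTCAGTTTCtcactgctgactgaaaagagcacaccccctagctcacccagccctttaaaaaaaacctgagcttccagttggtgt
Bst2: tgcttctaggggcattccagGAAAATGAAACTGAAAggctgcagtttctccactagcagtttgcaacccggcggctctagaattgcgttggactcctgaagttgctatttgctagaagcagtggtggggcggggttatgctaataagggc
Phf11b: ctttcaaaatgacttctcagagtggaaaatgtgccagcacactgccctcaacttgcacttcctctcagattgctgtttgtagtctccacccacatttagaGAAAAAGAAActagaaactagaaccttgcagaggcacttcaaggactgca
Rsad2: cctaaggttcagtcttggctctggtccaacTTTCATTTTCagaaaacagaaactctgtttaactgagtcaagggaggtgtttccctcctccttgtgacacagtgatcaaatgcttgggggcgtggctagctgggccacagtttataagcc
Lgals3bp: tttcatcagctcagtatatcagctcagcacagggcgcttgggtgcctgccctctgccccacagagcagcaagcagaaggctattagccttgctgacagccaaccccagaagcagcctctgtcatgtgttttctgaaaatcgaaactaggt
Cmpk2: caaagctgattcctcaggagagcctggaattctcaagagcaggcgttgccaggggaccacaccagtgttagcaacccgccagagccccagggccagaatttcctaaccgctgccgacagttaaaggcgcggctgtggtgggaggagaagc
The stretches lie at chr4:156200819-156200968, minus strand for Isg15, chr19:34640739-34640888, plus strand for Ifit1, chr8:71537473-71537622, minus strand for Bst2, chr14:59341331-59341480, minus strand for Phf11b, chr12:26456453-26456602, minus strand for Rsad2, chr11:118401960-118402109, minus strand for Lgals3bp and chr12:26469065-26469214, plus strand for Cmpk2. The run in capitals at Isg15 holds 3 overlapping matches, that at Bst2 holds 2, and the 2 at Ifit1 stand apart on the opposite strand.

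Few of these genes passed the test between RM and MM. In limma, with Benjamini-Hochberg adjustment over all 11317 genes, 2 of the 46 were higher in RM (19.9% of all genes were) and 3 were lower (10.6% of all genes were). Higher were Lgals3bp, which encodes a secreted glycoprotein that binds galectins, and Epsti1, an interferon-induced gene of macrophages. Lower were Cmpk2, a mitochondrial nucleotide kinase, Sp100, a component of nuclear bodies, and Ifi204, a sensor of DNA. The median log2 fold change (RM minus MM, on the log2(FPKM + 1) scale) was 0.11, beside 0.06 over all tested genes, with 31 values above and 15 below 0. Of the 46, 35 differed by less than 0.5 on that scale, as did 70.9% of all genes, and 3 differed by at least 1, as did 12% of all genes. The 3 RM libraries all lay above the 3 MM libraries for 4 genes (29.3% of all genes) and all below for 5 (16.9% of all genes), and for 37 the groups overlapped.

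**Figure D1:**
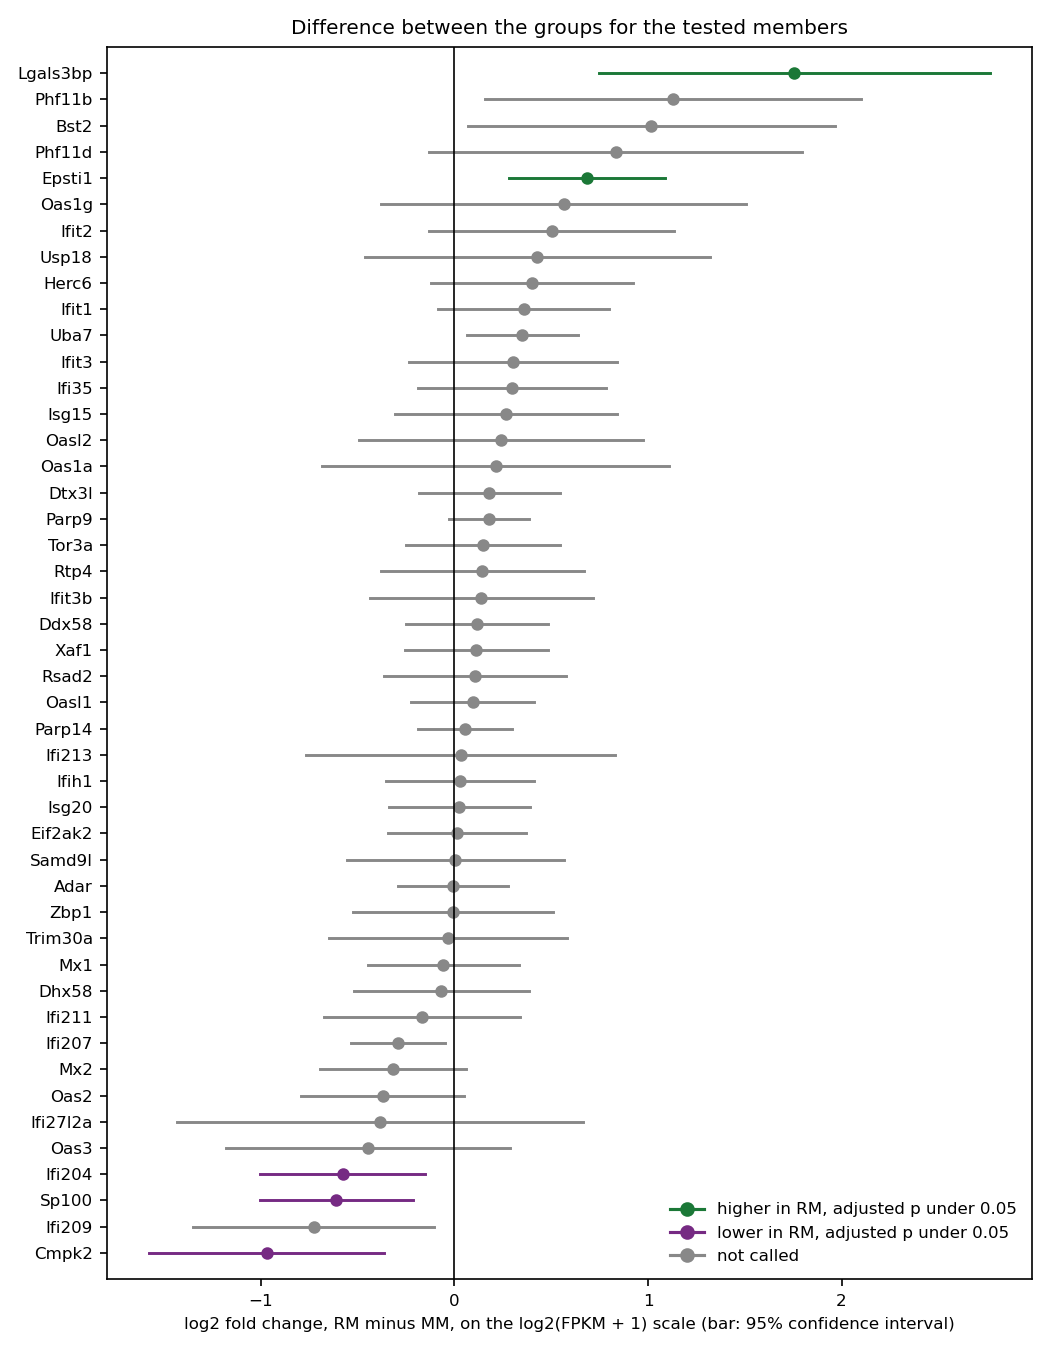
Log2 fold change of the 46 tested type I interferon-stimulated genes (horizontal axis, RM minus MM on the log2(FPKM + 1) scale), with bars for the 95% confidence interval from limma and n = 3 libraries per group. Colored points passed an adjusted p of 0.05: 2 genes were higher and 3 lower in RM, and the bars of most other genes cross 0.

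A missed threshold does not show that a gene was equal in the groups. Standard errors of the 41 uncalled genes ran from 0.0885 to 0.449, and for 31 of them both bounds of the 95% confidence interval lay within 1 log2 unit of 0. The unadjusted p was under 0.05 for 10 of the 46, and for 41.4% of all genes.

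Genes of the Isg15 system and of the Ifit family showed no called difference. Isg15, the ubiquitin-like protein itself (chromosome 4, 156199424 to 156200818), had 26.6, 27.1 and 18.8 FPKM in RM1, RM2 and RM3 and 19.9, 13.8 and 27.4 in MM1, MM2 and MM3. The highest and the lowest value both came from MM, and the log2 fold change was 0.27 (SE 0.25, limma adjusted p = 0.463). Usp18, the protease that removes Isg15 and blocks the receptor, had 11.1, 14.3 and 9.09 against 8.03, 4.19 and 15.3 FPKM (log2 fold change 0.43, SE 0.38). Uba7, the activating enzyme for Isg15, lay higher in every RM library, at 4.96 to 6.20 against 3.71 to 4.31 FPKM, but did not pass (limma adjusted p = 0.0679). Herc6, a ligase for Isg15 in mice, had 5.34 to 7.66 against 3.12 to 6.30 FPKM.

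The 4 Ifit genes bind foreign RNA or block its translation and lie side by side on chromosome 19 (34550694 to 34650009). Ifit2 had 37.6, 31.96 and 33.7 FPKM in RM1 to RM3 and 15.9, 22.6 and 37.9 in MM1 to MM3. Ifit3 had 36.0, 34.2 and 29.95 against 21.1, 22.7 and 40.3. In both genes MM3 exceeded all 3 RM libraries, while MM1 and MM2 lay below them. The log2 fold changes were 0.50 (SE 0.27) for Ifit2 and 0.30 (SE 0.23) for Ifit3, with limma adjusted p of 0.208 and 0.373. Without MM3 they were 0.82 and 0.59 and both passed (limma adjusted p = 0.0130 and 0.0121). Ifit1 and Ifit3b, at log2 fold changes of 0.36 and 0.14, did not pass with all libraries. Ifit3 and Ifit3b share 31.7% and 27.4% of their 100-base stretches with each other, so their split is uncertain.

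The antiviral GTPases and the OAS enzymes, which make the 2-5A signal for RNA decay, were also not called. Mx1 had 14.7, 16.9 and 18.7 FPKM in RM and 16.3, 14.5 and 22.3 in MM (log2 fold change -0.06, SE 0.17). Mx2 had 3.25, 3.54 and 3.11 against 4.14, 3.52 and 5.66 (-0.32, SE 0.16). In each of these genes MM3 was the highest of the 6 libraries and the groups overlapped.

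Oas1a had 21.7, 24.3 and 10.6 FPKM in RM and 16.9, 8.94 and 23.0 in MM. Oasl2, a relative, had 14.4, 17.2 and 9.91 against 12.4, 6.79 and 16.8. Both were low in RM3 and in MM2 and high in the other libraries, so the spread within each group exceeded the difference between them (log2 fold changes 0.21, SE 0.38, and 0.24, SE 0.31). Oas2, Oas3, Oas1g and Oasl1 had log2 fold changes of -0.37, -0.45, 0.56 and 0.09, and Oas2 lay lower in every RM library. Oas1g rested on few fragments in MM2, an estimated 23.7 at 0.72 FPKM, and shares 31.3% of its 100-base stretches with Oas1a. Without MM3, Oas1g passed as higher in RM (log2 fold change 1.04, limma adjusted p = 0.0264).

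Sensors and effectors of foreign RNA had log2 fold changes close to 0. Eif2ak2, the kinase PKR that stops translation, had 24.8, 24.0 and 19.2 FPKM in RM and 23.3, 18.4 and 25.7 in MM, with a 95% confidence interval of the log2 fold change from -0.34 to 0.37. Zbp1, a sensor of left-handed nucleic acid, had 21.7, 25.5 and 18.8 against 23.7, 15.5 and 28.8, with an interval from -0.52 to 0.51. Ddx58 (RIG-I), Ifih1 (MDA5) and Dhx58 (LGP2), the helicases that detect viral RNA, and Adar, which edits double-stranded RNA, had log2 fold changes between -0.07 and 0.12. The groups overlapped in all 6 of these genes.

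The PYHIN genes, a cluster on chromosome 1 whose products bind DNA or join inflammasomes, had the lower values in RM in part. Ifi204 (173747293 to 173766943) had 82.6, 66.4 and 69.6 FPKM in RM and 113, 83.9 and 136 in MM. Every RM library lay below every MM library, if narrowly so for RM1 and MM2. The mean was 1.52-fold higher in MM, at 111 ± 25.9 against 72.8 ± 8.58 FPKM (SD, n = 3), with a log2 fold change of -0.58 (SE 0.18, limma adjusted p = 0.0482). The call is narrow: it ended without any 1 of the RM libraries or without MM1 or MM3, at limma adjusted p between 0.0661 and 0.152, and also with a pseudocount of 0.1, no filter, quantile normalization or no variance trend (limma adjusted p between 0.0511 and 0.0910). Ifi207 had 87.3, 92.4 and 84.9 against 113, 97.9 and 114 FPKM, also with no overlap, and did not pass (log2 fold change -0.29, SE 0.10, limma adjusted p = 0.0698). Ifi209 had 68.4, 64.9 and 51.9 against 108, 67.3 and 147 FPKM. It missed the threshold with all libraries (-0.73, SE 0.27, limma adjusted p = 0.0777) and passed without MM2, the library where it was low (-1.02, limma adjusted p = 0.00696). Ifi211 and Ifi213 had log2 fold changes of -0.17 and 0.03. Relatives in the cluster are similar, and 56.9%, 16.9% and 10.7% of the 100-base stretches of Ifi211, Ifi209 and Ifi204 occur in another gene, so reads may be split among them.

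Neighbouring genes on chromosome 12 differed in their pattern. Cmpk2 (26469204 to 26479837) had 8.41, 8.67 and 6.80 FPKM in RM and 18.04, 10.5 and 23.4 in MM, and no RM library reached the lowest MM library. Its mean was 2.17-fold higher in MM, 17.3 ± 6.49 against 7.96 ± 1.01 FPKM (SD, n = 3), with a log2 fold change of -0.97 (SE 0.26, limma adjusted p = 0.0263). Without any 1 library other than MM2 the limma adjusted p lay between 0.0616 and 0.0854, and without a filter it was 0.0602. Rsad2, which encodes viperin, an enzyme that makes a chain-ending nucleotide, lies beside it on the other strand (26442746 to 26456452). It had 20.4, 13.8 and 22.9 FPKM in RM and 14.2, 17.99 and 20.1 in MM (log2 fold change 0.11, SE 0.20). Isg20, a nuclease, had 3.11 to 4.70 against 3.38 to 4.27 FPKM.

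ADP-ribosyl transferase genes and their ubiquitin ligase partner differed little between the groups. Dtx3l, the ligase, had 37.2, 39.6 and 30.1 FPKM in RM and 31.7, 26.0 and 36.7 in MM (log2 fold change 0.18, SE 0.16). Parp14 had 32.1, 34.8 and 32.5 against 31.0, 29.2 and 35.8 (0.05, SE 0.10). Parp9 lay higher in every RM library, at 15.4 to 16.6 against 13.6 to 14.5 FPKM, and did not pass (0.18, SE 0.09, limma adjusted p = 0.173). Exons of Parp9 and Dtx3l overlap by 458 bases on opposite strands, and whether the counting used strand is not given in the sources used here.

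Among genes of nuclear bodies and chromatin, Sp100 (chromosome 1, 85649988 to 85709998) was lower in RM. It had 20.3, 20.97 and 19.4 FPKM in RM and 31.7, 24.3 and 40.1 in MM, with no overlap. The mean was 1.58-fold higher in MM (32.02 ± 7.86 against 20.2 ± 0.802 FPKM, SD, n = 3), with a log2 fold change of -0.61 (SE 0.17, limma adjusted p = 0.0298). The call ended without any 1 library other than MM2 (limma adjusted p between 0.0527 and 0.0889) and without a filter (0.0591). Trim30a, a regulator of inflammatory signaling, had 32.3, 29.6 and 23.1 against 33.8, 18.4 and 38.0 FPKM (-0.03, SE 0.26).

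Phf11b and Phf11d, neighbours on chromosome 14 with a PHD finger, varied widely among the MM libraries. Phf11b had 40.6, 49.4 and 29.1 FPKM in RM and 16.0, 9.19 and 33.9 in MM, so that only MM3 reached into the RM range. Phf11d had 5.02, 6.0 and 4.11 against 2.17, 0.84 and 5.52, where the MM2 value rests on an estimated 52.8 fragments. With log2 fold changes of 1.13 (SE 0.42) and 0.83 (SE 0.41) neither passed (limma adjusted p = 0.0795 and 0.172). Without MM3 the values were 1.6 and 1.31 and both passed (limma adjusted p = 0.00919 and 0.0137). Phf11b shares 13.8% of its 100-base stretches with relatives of the same cluster.

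Genes for membrane and secreted proteins held the largest difference of the list. Lgals3bp (chromosome 11, 118392751 to 118402092) had 66.3, 56.7 and 44.4 FPKM in RM and 21.1, 6.73 and 25.8 in MM. The lowest RM library lay well above the highest MM library. The mean was 3.12-fold higher in RM, 55.8 ± 10.9 against 17.9 ± 9.94 FPKM (SD, n = 3), with a log2 fold change of 1.76 (SE 0.43, limma adjusted p = 0.0190). Without RM1 or RM2 it was 1.62 or 1.74 and did not pass (limma adjusted p = 0.0709 and 0.0650). Bst2, tetherin, holds budding viruses at the cell surface and is also a surface marker of plasmacytoid dendritic cells. It had 33.4, 35.7 and 27.6 FPKM in RM and 14.6, 7.82 and 30.7 in MM, and again only MM3 reached the RM range. The log2 fold change was 1.02 (SE 0.41, limma adjusted p = 0.10), and without MM3 it was 1.49 and passed (limma adjusted p = 0.00722). Summed markers of plasmacytoid dendritic cells stood at 21.4 to 22.6 FPKM in RM and 3.42 to 4.05 in MM, and their part in the level of Bst2 was not tested. Rtp4, a chaperone of membrane receptors, had 20.9 to 23.7 FPKM in RM and 13.7 to 27.7 in MM.

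The remaining genes included the most abundant one. Ifi27l2a, a small mitochondrial protein, had 145, 130 and 80.5 FPKM in RM and 153, 77.4 and 288 in MM, and its spread was the widest of the uncalled genes (log2 fold change -0.38, SE 0.45). Epsti1 (chromosome 14, 77904239 to 78002657) had 96.8, 112 and 98.5 FPKM in RM and 76.4, 48.3 and 68.3 in MM, with no overlap. It was 1.59-fold higher in RM by means of 102 ± 8.14 and 64.4 ± 14.5 FPKM (SD, n = 3), with a log2 fold change of 0.68 (SE 0.17, limma adjusted p = 0.0208). The call ended without any 1 of the RM libraries (limma adjusted p between 0.0532 and 0.0795) and within the 4 libraries low in Y-linked RNA (0.0585). Ifi35, Xaf1, Tor3a and Samd9l had log2 fold changes between 0.01 and 0.30 and did not pass.

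**Figure D2:**
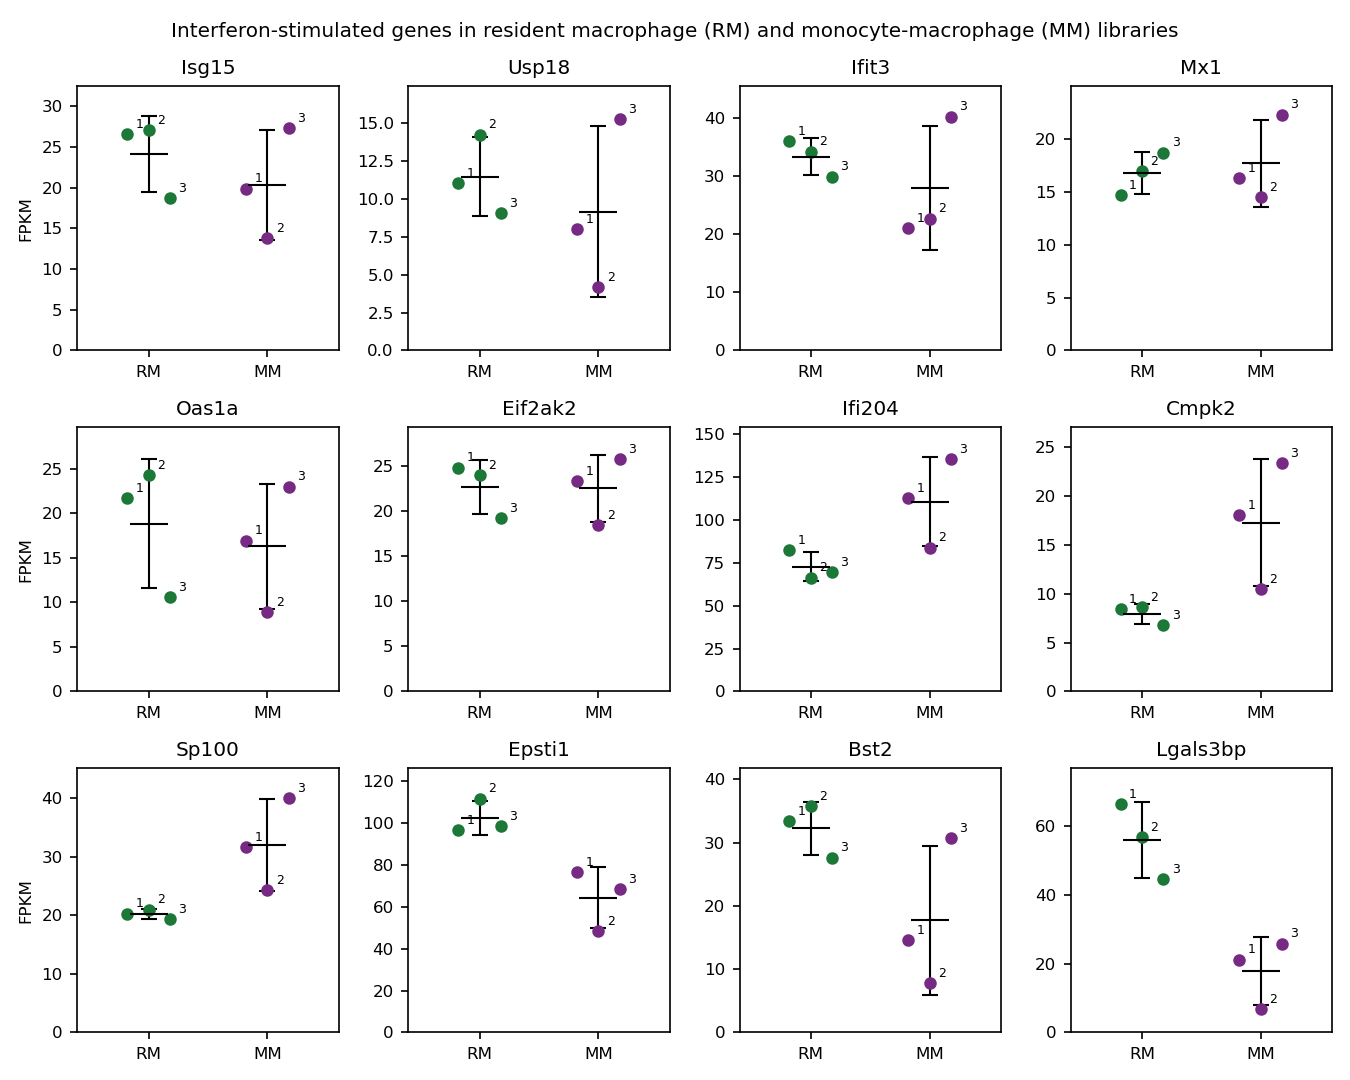
FPKM (vertical axes, each from 0) of 12 type I interferon-stimulated genes in each library of resident macrophages (RM, green) and monocyte-macrophages (MM, purple), numbered by library, with the mean (wide line) and SD (bars, n = 3). In Isg15, Usp18, Oas1a and Eif2ak2 libraries MM2 and MM3 bracket or nearly bracket the RM values, while in Lgals3bp, Epsti1, Cmpk2, Sp100 and Ifi204 the groups do not overlap.

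The MM libraries differed from each other in most of these genes, and in the same order. MM3 was the highest of the MM libraries for 43 of 46 genes (35.5% of all tested genes) and MM2 the lowest for 40 (30.2% of all tested genes). Both held for 39 (84.8%), as for 17.8% of all tested genes. This order was picked after the values were seen and is given as a description. The ratio of MM3 to MM2 had a median of 1.79 and ran from 0.793 to 6.61, with 18 genes at 2 or more, beside a median of 0.984 over all tested genes. Deviations from the MM mean on the log2(FPKM + 1) scale had medians of -0.02 in MM1, -0.39 in MM2 and 0.38 in MM3 for the list, and of -0.03, 0.02 and 0.01 for all genes. The median SD over the MM libraries was 0.42 for the list and 0.18 for all genes.

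The RM libraries spread less. RM3 was the lowest for 36 of 46 genes (78.3%, against 27.5% of all genes), and RM2 the highest for 27 (58.7%, against 30.9% of all genes). Median deviations were 0.07, 0.10 and -0.16 in RM1, RM2 and RM3, the median SD was 0.18 (all genes 0.13), and the median ratio of the highest to the lowest RM library was 1.28. The MM range exceeded the RM range for 40 of the 46 genes (87.0%, against 65.0% of all genes).

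**Figure D3:**
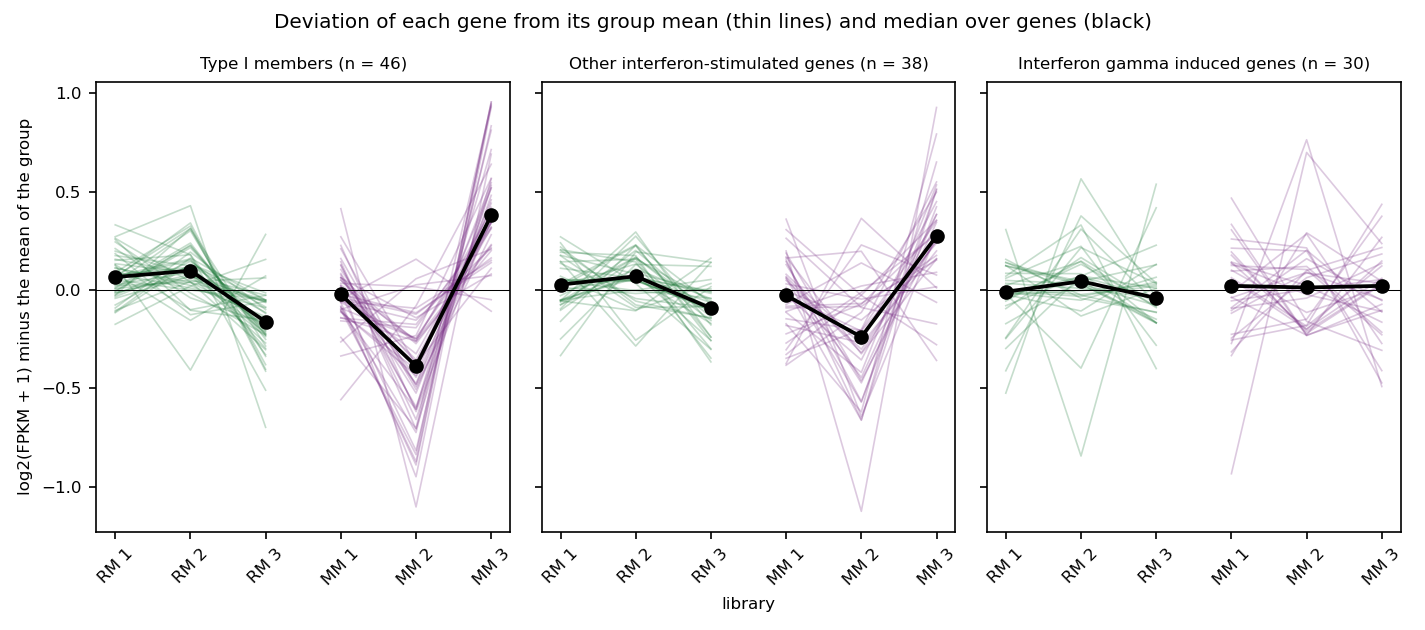
Deviation of each gene from the mean of its own group (vertical axis, log2(FPKM + 1) scale) in every library (horizontal axis), for the 46 tested type I genes, 38 other interferon-stimulated genes and 30 interferon gamma induced genes. Thin lines are genes and black points their median, which for the type I genes is -0.39 in MM2 and 0.38 in MM3 and for the gamma list stays near 0.

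The order differed between roles. It was seen for all 6 OAS genes, all 6 RNA sensors and effectors, all 5 PYHIN genes, all 4 genes of nuclear bodies and chromatin, all 3 membrane and secreted genes and both Mx genes. It held for 3 of 4 genes of the Isg15 system, 5 of 6 of the remaining genes, 2 of 3 ADP-ribosyl transferase genes and partners, 2 of 4 Ifit genes and 1 of 3 nucleotide and nuclease genes. The ratio of MM3 to MM2 was largest for Phf11d (6.61), Oas1g (6.10) and Bst2 (3.92) and smallest among the RNA sensors for Adar (1.21). The 7 genes with another order were Uba7, Ifit2, Ifit3 and Rsad2, where MM3 was highest but MM1 lowest, Isg20, where MM2 was highest, and Parp9 and Epsti1, where MM1 was highest. Of the tested genes with a promoter window, 15 of 17 with the core and 13 of 17 without it followed the order. The core stood in the windows of 17 of 30 uncalled and 0 of 4 called genes that have a window, a difference that was not tested.

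Several other measures differed between the same libraries. MM2 and RM3, the lowest libraries of their groups for 33 of the 46 genes (71.7%, against 13.4% of all genes), are the libraries with more Y-linked RNA. Between the MM libraries with less of it, MM3 lay above MM1 for 43 of 46 genes (93.5%, against 54.4% of all genes). The sum of neutrophil markers, to which S100a8 and S100a9 gave most, was highest in MM3 but lowest in MM1. Of the single markers, Csf3r, Cxcr2 and Stfa2l1 were highest in MM2, with Csf3r and Stfa2l1 lowest in MM3, and the others followed the sum. The sum of T cell markers was highest in MM2, while single T cell markers were highest in either MM2 or MM3. The share of all FPKM taken by 1 RNA, Rpph1, was 15.8% in MM3 and 8.61% to 10.3% in the other libraries. Under median-of-ratios scaling and quantile normalization the order held for 38 and 39 genes. The part of these differences in the order was not tested further.

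Leaving out MM3 or MM2 changed which genes were called. Without MM3, 8 of the 46 were higher in RM (17.5% of all genes were) and 0 lower (8.85% of all genes), with 3 lower at an unadjusted p under 0.05 in limma. The 8 were Lgals3bp, Epsti1, Phf11b, Phf11d, Bst2, Oas1g, Ifit2 and Ifit3, and the median log2 fold change was 0.23. Without MM2, 2 were higher (18.5% of all genes) and 5 lower (9.48% of all genes), namely Cmpk2, Sp100, Ifi204, Ifi207 and Ifi209, with a median of -0.04. With a term for the Y-linked split, 4 were higher (21.3% of all genes) and 5 lower (11.6% of all genes), since Phf11b, Bst2, Ifi207 and Ifi209 also passed. Among RM1, RM2, MM1 and MM3 alone, the 4 libraries low in Y-linked RNA, 1 was higher (13.1% of all genes) and 4 were lower (6.89% of all genes). RM3 and MM2 alone, with 1 library each, cannot be tested.

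Genes upstream of the response were mostly not called either. All 18 type I interferon genes of the table were below 1 FPKM in every library, and 14 of them were listed at 0 throughout. Ifnb1, interferon beta, had 0.54, 0 and 0.75 FPKM in RM1 to RM3 and was listed at 0 in all MM libraries, and Ifnk reached at most 0.58. Ifng, the interferon gamma gene of T and natural killer cells, had 9.69, 4.44 and 14.2 FPKM in RM and 0.061, 1.65 and 0.88 in MM (log2 fold change 2.46, limma adjusted p = 0.00472). In the same libraries 15 of 15 T cell and 5 of 5 tested natural killer cell markers were higher in RM, with the limit from the filter given above.

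The receptor chains and kinases Ifnar1, Ifnar2, Jak1 and Tyk2 had log2 fold changes from -0.03 to 0.49. In limma 0 of 4 passed (19.9% of all genes were higher and 10.6% lower). The unadjusted limma p was under 0.05 for 1 of the 4, and for 41.4% of all genes. Ifnar1 came nearest, with 27.2, 26.2 and 25.8 FPKM in RM and 20, 22.2 and 14.2 in MM (limma adjusted p = 0.0511). Of 8 genes for ISGF3 and interferon regulatory factors, 1 was higher and 0 were lower (19.9% and 10.6% of all genes). The higher one was Irf8, a factor of macrophage and dendritic cell development (0.46, limma adjusted p = 0.0474). An unadjusted limma p under 0.05 was found for 4 of the 8, against 41.4% of all genes. The call of Irf8 ended without any 1 of the RM libraries or without MM3. It also ended with a pseudocount of 0.1, no filter, median-of-ratios scaling or no variance trend, and within the 4 libraries low in Y-linked RNA. Stat2 had 28.3, 33.3 and 28.8 against 29.4, 23.7 and 28.9 FPKM (0.14, limma adjusted p = 0.428), and the groups overlapped. Irf9 had 15.4, 14.3 and 13.7 against 16.5, 14.2 and 17.3. Irf7, itself an interferon-stimulated gene, had 17.5, 18.7 and 10.5 against 16.5, 9.69 and 26.4 FPKM (-0.10), low in RM3 and MM2 and high in MM3 as most of the 46 genes were. Among the MM libraries, 3 of the 8 genes were highest in MM3 and lowest in MM2.

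Inhibitors and sensors held a few called genes. Of 7 negative regulators, 1 was higher and 0 were lower (19.9% and 10.6% of all genes). The higher one was Socs1, which blocks Janus kinases, at 16.5, 18.5 and 17.6 against 8.38, 10.3 and 8.72 FPKM (0.88, limma adjusted p = 0.000914). A further list held 18 sensors, adaptors and related enzymes, not all of which lead to interferon production. Of these, 3 were higher and 1 lower (limma, 19.9% and 10.6% of all genes), with a median log2 fold change of -0.06. Without RM2 1 was higher, and 3 were lower without MM2 (9.48% of all genes) but 0 without any other single library. Tlr3, an endosomal sensor of double-stranded RNA that conventional dendritic cells also use, had 4.60, 4.195 and 3.69 against 0.31, 0.26 and 0.52 FPKM (1.92). Tlr3 thus lay below 1 FPKM in every MM library and passed the filter through RM alone, which largely set its direction. Tlr9, which senses DNA in endosomes, and Sting1, the adaptor of cytosolic DNA sensing, were higher by 0.68 and 0.61, and Samhd1, which degrades nucleotides, fell by 0.45. Markers of conventional dendritic cells summed to 151 to 230 FPKM in RM and 16.5 to 19.5 in MM, and their part in Tlr3 was not tested.

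**Figure D4:**
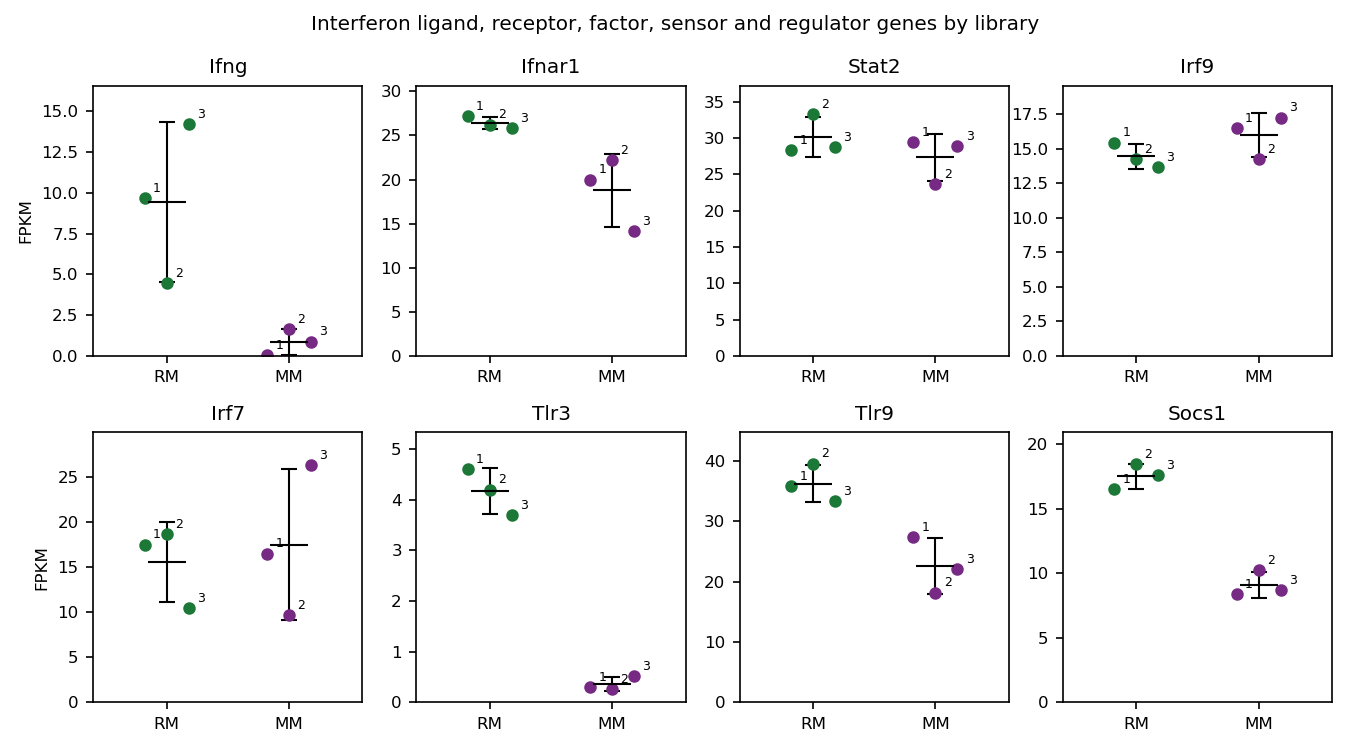
FPKM (vertical axes, each from 0) in each library of 8 genes that make, receive or limit interferon signals, with the mean (wide line) and SD (bars, n = 3) in resident macrophages (RM, green) and monocyte-macrophages (MM, purple). Ifng, Tlr3, Tlr9 and Socs1 are higher in all RM libraries, while the RM and MM values of Stat2, Irf9 and Irf7 overlap.

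Interferon-stimulated genes outside the 47 formed a further list. Of 38 tested, 8 were higher in RM and 1 lower (limma; 19.9% and 10.6% of all genes), with a median log2 fold change of 0.18. The share of higher genes is thus near that of all genes. Higher were Gm4951 (2.42), Phf11a (1.64), Ifi205 (1.41), Apobec3 (0.78), Ifitm1 (0.70), Znfx1 (0.69), Oas1c (0.50) and Trim21 (0.42), and Ms4a4c fell by 0.98. Oas1c lay below 1 FPKM in every MM library and passed the filter through RM alone. The order with MM3 highest and MM2 lowest was seen for 21 of the 38 (55.3%), with a median MM3 to MM2 ratio of 1.56. The count of higher genes was 3 without RM1, 4 without RM2 or RM3, 5 without MM2 and 10 without MM3. Of all genes, 18.5% were higher without MM2 and 17.5% without MM3. The count of lower genes was 0 without MM1, MM3, RM2 or RM3, 2 without RM1 and 3 without MM2. Of all genes, 9.48% were lower without MM2 and 8.85% without MM3.

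Genes induced mainly by interferon gamma showed other values in the same libraries. Of 30 tested, 23 were higher in RM and 0 lower (limma, 19.9% and 10.6% of all genes), and the median log2 fold change was 0.88. The unadjusted limma p was under 0.05 for 27 (41.4% of all genes). For 28 every RM library lay above every MM library (29.3% of all genes). Socs1 and Irf1 are also counted in the lists of inhibitors and of interferon regulatory factors above. Serpina3f lay below 1 FPKM in every MM library and passed the filter through RM alone. Ciita, the switch of MHC class II genes, was higher by 3.39, the serpin Serpina3g by 2.77, the GTPase Iigp1 by 2.61 and the chemokine Cxcl9 by 2.61. Cxcl10, which both kinds of interferon induce, had 12.9, 10.6 and 11.8 against 9.57, 9.24 and 5.36 FPKM and did not pass (0.53, limma adjusted p = 0.0881). The order with MM3 highest and MM2 lowest was seen for 3 of the 30 (10.0%), and the median MM3 to MM2 ratio was 0.999. The difference between these lists was not tested, and several genes of this list are also used by the dendritic cells and T cells whose markers were higher in RM.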

How the data were processed

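Expression in 6 libraries, 3 per group, was deposited by the authors as FPKM. Per the submitters' processing notes, the tools were FastQC, HISAT2 and featureCounts and the build was mm10. For versions, strand, annotation and multi-mapped reads, the handling is not given in the sources used here. FPKM are not counts. Depth was estimated from the FPKM worth of 1 read, with exon lengths of GENCODE M21. Only 40.7% to 44.6% of values worth under 20 reads were whole numbers of reads (tolerance 0.02), so counts were not recovered.

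Genes with at least 1 FPKM in at least 3 libraries were fitted as log2(FPKM + 1) in limma 3.58.1 (R 4.3.3) with a variance trend and Benjamini-Hochberg adjustment over 11317 genes, and passed at an adjusted p under 0.05. This scale understates changes of low genes. The script was tested on simulated data. Gene positions are from GENCODE M21 (mm10), and promoter windows from RefSeq (GRCm38.p6), where 12 of the 47 genes had none. Shared sequence was the share of 100-base stretches of a gene's transcripts found in another gene.

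Groups and library numbers came from the sample titles. The 47 genes, the gene lists and the tests were chosen with earlier results of these data known. Values per library were set to be given for called genes, the 2 most abundant genes of each role and the 5 largest differences. Ifi209, Oas1g, Ifi44, Ifnb1, Ifnk, Irf7 and Irf9 were added after their values were seen. Alternatives covered the pseudocount, the filter, scaling, moderation, a replicate block, Y-linked RNA and single libraries.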

Additional observations from a re-analysis of the deposited data

How the results depend on the processing

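With all libraries 2 of the 46 genes were higher and 3 lower in resident macrophages, and these counts changed with the libraries and terms used. Without a filter 0 were lower, and the cause was not tested. A term for Y-linked RNA gave 4 higher and 5 lower genes, and the 4 libraries low in Y-linked RNA alone gave 1 higher gene. Leaving out 1 library at a time gave 0 to 8 higher and 0 to 5 lower genes. There were 8 higher without MM3 (17.5% of all genes), 0 higher without RM1 or RM2 and 1 higher without RM3. There were 5 lower without MM2 (9.48% of all genes) and 0 lower without any other library. For the fits without a filter, MM1 or any 1 of the RM libraries, the share of all genes called was not worked out, here or for the other lists. A loss of calls in these genes and a loss over all genes cannot be told apart there. In these fits an arm with 2 libraries is assumed to vary like the other. The median log2 fold change ran from -0.04 without MM2 to 0.23 without MM3. Quantile normalization moved the median of all genes from 0.06 to -0.04 and that of the 46 genes from 0.11 to 0.02. Of 730 values of single genes under the alternatives, 30 lost a call, 14 gained one, and 0 of the called values changed direction, while 21 uncalled genes changed sign at least once. Counts with only the 43 genes under their own symbol, an alternative chosen after seeing the data, were 2 and 3. The shorter core GAAANNGAA occurred in 20 of 35 windows, against 9.76% of all genes.

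With the replicate number as a replicate block, 1 gene was higher (16.4% of all genes) and 1 lower (8.83% of all genes). Lgals3bp and Ifi204 passed, while Epsti1, Cmpk2 and Sp100 had limma adjusted p of 0.0520, 0.0518 and 0.0558, and Irf8 did not pass. Library numbers are shared by the groups in the labels, which do not say whether same-numbered libraries came from the same mice. Deviations of same-numbered libraries correlated at 0.189, -0.147 and -0.089 across genes. Deviations centred on 3 libraries per group cannot decide whether they were paired. The highest of all 9 values, 0.386, was between RM3 and MM2, the libraries with more Y-linked RNA. Depth limits Oas1g and Phf11d in MM2, where few fragments were counted, and 3 libraries per group limit the precision of every fold change.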
